A study of Mus musculus with 6 samples.

Results

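The genes described here are Samd5, Tnfrsf11b, Rbms1, Ncmap, Arhgap6, Capn2, Cgnl1 and Elk3, which make up 8 of the 31319 genes in the count matrices. They were chosen by their counts summed over all nuclei, which were higher in organoids grown in medium from senescent fibroblasts than in medium from quiescent fibroblasts. The difference between the media is therefore given below as a description of the genes and carries no test. The 8 genes were then followed across the 15 deposited clusters, numbered 0 to 14, and the 6 samples.

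The proteins they encode work at different places in an epithelial cell. Tnfrsf11b encodes osteoprotegerin, a secreted decoy receptor of the tumour necrosis factor receptor family that captures RANKL and TRAIL before they reach their receptors, and RANKL reaching the intestinal epithelium drives the formation of M cells. Cgnl1 encodes paracingulin, a cytoplasmic protein of epithelial junctions, and Arhgap6 encodes a GTPase-activating protein. Capn2 encodes the catalytic subunit of m-calpain, a calcium-dependent protease that cuts cytoskeletal and adhesion proteins. Elk3 is an ETS factor that binds DNA together with serum response factor, Rbms1 is an RNA-binding protein, Samd5 carries a sterile alpha motif domain, and Ncmap is a small membrane protein first described in the myelin of Schwann cells.

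Organoids were grown from jejunal crypts of C57BL/6 mice 8 to 12 weeks old. They received medium conditioned by mouse embryonic fibroblasts that were quiescent (QCM, 3 samples, low serum) or senescent (SCM, 3 samples, X-ray irradiation or doxorubicin), concentrated and mixed with organoid medium in both cases. The labels do not say which of the 2 ways of inducing senescence was used for a sample. Nuclei were profiled by a droplet method that counts unique molecular identifiers (UMIs) at the 3′ end of transcripts, which gave 38154 nuclei. The labels do not tie samples to separate animals, so the spread between samples may be partly technical.

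The libraries differed in size, and one stood apart. QCM samples held 3791 to 10144 nuclei and 19925280 to 41035733 UMIs. SCM replicate 1 held 430 nuclei and 4071926 UMIs, against 20789962 and 26799890 UMIs in the other SCM samples. Of its 430 nuclei, 175 carried a barcode that was also present in QCM replicate 1, and 40 of those 175 lay in the same cluster in both libraries, whereas other pairs of libraries shared 0 to 36 barcodes. In addition, 7 deep nuclei of cluster 14 held 32.2% of the UMIs of SCM replicate 1. The levels of the 8 genes in this library are therefore also given without cluster 14, and their ratios without the library and without its shared barcodes.

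Sequence just upstream of the gene starts is shown for 3 of the genes because the members were all highest in cluster 7 while differing in how widely they were expressed. RefSeq promoter windows (build GRCm38.p6) were found for 7 of the 8 genes. Arhgap6 had 3 windows and Rbms1 and Ncmap 2 each, and only the window nearest the annotated gene start was used. In the window used for each gene, the 250 bases before the start were searched on both strands for 5 motifs. These were the AP-1 site TGAGTCA, the TEAD site GGAATG, the ETS site CCGGAAG, the TATA box TATAAA and the GC box GGGCGG. Samd5, with the largest ratio between media, is shown with GC boxes in capitals (chr10:9675209-9675458, minus strand). Capn2 is shown with the AP-1 site in capitals (chr1:182517611-182517860, minus strand), and Arhgap6, the most widely expressed of the genes, held none of the 5 motifs (chrX:168794849-168795098, plus strand).
Samd5: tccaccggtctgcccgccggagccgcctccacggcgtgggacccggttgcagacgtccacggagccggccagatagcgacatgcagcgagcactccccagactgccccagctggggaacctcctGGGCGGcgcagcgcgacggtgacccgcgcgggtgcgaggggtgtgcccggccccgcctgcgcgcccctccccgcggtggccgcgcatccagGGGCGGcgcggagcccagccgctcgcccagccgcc
Capn2: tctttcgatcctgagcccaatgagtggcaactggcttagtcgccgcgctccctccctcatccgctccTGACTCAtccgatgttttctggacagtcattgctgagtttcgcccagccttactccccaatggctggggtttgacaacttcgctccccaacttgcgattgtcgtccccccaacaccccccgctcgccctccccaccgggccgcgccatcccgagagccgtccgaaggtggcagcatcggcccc
Arhgap6: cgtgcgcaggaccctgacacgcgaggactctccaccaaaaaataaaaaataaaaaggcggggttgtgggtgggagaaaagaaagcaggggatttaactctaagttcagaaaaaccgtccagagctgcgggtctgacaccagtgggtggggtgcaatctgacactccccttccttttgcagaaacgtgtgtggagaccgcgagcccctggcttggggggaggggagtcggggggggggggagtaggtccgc

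GC boxes occurred in 5 of the 7 windows, and in 32.7% of all 32851 windows of that length. The AP-1 site occurred in 1 of the 7, Capn2, where it began 183 bases before the start, and in 4.46% of all windows. The TEAD, ETS and TATA motifs were in none of the 7, against 12.6%, 6.91% and 12.4% of all windows. The GC content of the 7 windows ran from 57.6% to 78.4%, and the median of all windows was 52.4%. The windows compared were not matched for GC content, and 7 windows are too few to read anything from an absence.

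Summed over all nuclei of a sample, each of the 8 genes was higher in every SCM sample than in every QCM sample. Levels are given as counts per 1000000 UMIs of the sample (CPM), which compares samples for a gene but not genes with each other. Of the 19046 genes that passed the low-count filter, 4.99% separated the media in the same way, but the choice of the 8 genes used this contrast and nothing is read from their count. In such sums, more nuclei of a type and more RNA per nucleus cannot be told apart. The quasi-likelihood test of edgeR called none of the 19046 genes at an adjusted p under 0.05 (0% called, 866 at an unadjusted p under 0.05). DESeq2, in contrast, called 20 genes (0.105%), 19 of them higher in SCM (0.0998%). All 8 members were among the 20, and nothing is read from this because the same contrast chose them.

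Samd5 showed the widest separation. It was at 4.996, 5.39 and 5.22 CPM in the QCM samples and at 23.8, 89.1 and 18.8 in the SCM samples, in the order of replicates 1, 2 and 3. The QCM samples were nearly equal, whereas SCM replicate 2 was far above the other two. The means were 5.203 ± 0.200 and 43.9 ± 39.2 (SD, n = 3 each), 8.44-fold apart, and the edgeR log2 ratio of SCM over QCM was 2.91 ± 0.58 (SE). Without SCM replicate 2 this log2 ratio was 1.87.

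Tnfrsf11b, the decoy receptor, was at 3.36, 3.71 and 4.62 CPM in QCM and at 18.7, 29.8 and 10.8 in SCM. The lowest SCM sample was 2.34 times the highest QCM sample, and the SCM samples spread more widely than the QCM samples. The log2 ratio was 2.17 ± 0.37 (SE). In SCM replicate 1, 58 of its 76 UMIs came from the 7 nuclei of cluster 14. Without cluster 14 that sample stood at 6.52 CPM, still above the highest QCM value of 4.62.

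The ligands and receptors that osteoprotegerin bears on were measured too. Tnfsf11, the gene of RANKL, had 8 UMIs in all 6 samples together and was not tested. Its receptor gene Tnfrsf11a was abundant, at 35.2, 93.6 and 77.3 CPM in QCM and 68.8, 94.4 and 99.3 in SCM, and the media overlapped (log2 ratio 0.25 ± 0.30). Tnfsf10, the gene of TRAIL, had a log2 ratio of -0.06 ± 0.47, and its death receptor gene Tnfrsf10b one of 0.34 ± 0.22. None of the 6 tested genes of this axis was called by edgeR, 5 of the 6 had a higher estimate in SCM (6 when scaled by library size alone, where the sign of Tnfsf10 turned), and their median log2 ratio was 0.15, against -0.01 for all genes tested. Of the genes listed for M cells, the RANKL-dependent cell type, 5 of 8 were tested, none was called and 1 had a higher estimate in SCM (2 when scaled by library size alone, where the sign of Marcksl1 turned). Ccl20, a chemokine of the epithelium over lymphoid follicles, had a log2 ratio of -1.56 ± 0.74. It was at 11.4, 2.55 and 2.41 CPM in QCM and 3.19, 2.36 and 1.53 in SCM, which overlapped. Anxa5, which is widely expressed, had a log2 ratio of 0.87 ± 0.31, and the median of the 5 was -1.04. The listed genes Spib and Sox8 had 17 and 12 UMIs over all samples and were not tested, so nothing is read about M cells.

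Capn2 was at 4.09, 5.23 and 6.07 CPM in QCM and at 14, 23.9 and 12.5 in SCM. The SCM samples lay at least 2.06 times above the highest QCM sample. The log2 ratio was 1.56 ± 0.30 (SE). Without cluster 14, which held 30 of its 57 UMIs, SCM replicate 1 stood at 9.78. The other calpain genes showed smaller differences. Capns1, the small subunit that pairs with Capn2, had a log2 ratio of -0.40 ± 0.24, Capn1, the catalytic subunit of mu-calpain, one of -0.07 ± 0.27, and Cast, the gene of the inhibitor calpastatin, one of 0.22 ± 0.18. The stomach and gut calpains Capn8 and Capn9 were at 0.18 ± 0.23 and -0.26 ± 0.32. Of the 12 tested genes of this list, 8 had a higher estimate in SCM (9 when scaled by library size alone, where the sign of Capn1 turned), none was called and the median log2 ratio was 0.13.

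Cgnl1 was at 6.58, 6.92 and 9.28 CPM in QCM and at 24.6, 32.3 and 15.9 in SCM. The closest samples, QCM replicate 3 and SCM replicate 3, were 1.72 times apart. The log2 ratio was 1.51 ± 0.29 (SE). Cluster 14 held 56 of the 100 UMIs in SCM replicate 1, which stood at 15.9 CPM without it. Its paralogue Cgn, the gene of cingulin, was at 97.1, 104 and 109 in QCM and 118, 118 and 105 in SCM, and the media overlapped (log2 ratio -0.03 ± 0.15). Tjp1, which encodes the scaffold ZO-1 that both proteins bind, had a log2 ratio of 0.30 ± 0.19. None of the 8 tested genes of this list was called, 6 had a higher estimate in SCM (8 when scaled by library size alone, where the signs of Cgn and Tjp3 turned) and the median was 0.18.

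Arhgap6 was the member with the most UMIs, 5294 over all samples. It was at 21.1, 25.4 and 32.2 CPM in QCM and at 77.1, 69.6 and 52.5 in SCM, without overlap. The log2 ratio, 1.18 ± 0.20 (SE), was the smallest of the 8. Cluster 14 held 120 of the 314 UMIs in SCM replicate 1, which stood at 70.2 CPM without it. Gm15261, annotated antisense to Arhgap6, was at 30.9, 23.5 and 37.8 CPM in QCM and at 88.4, 57.2 and 50.9 in SCM. The authors counted reads with Cell Ranger, which by default assigns only sense reads to a gene, and the setting used is not given in the sources used here.

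Elk3 was at 4.12, 5.77 and 6.67 CPM in QCM and at 20.1, 23.6 and 10.9 in SCM. SCM replicate 3 was the closest to the QCM samples, 1.63 times the highest of them. The log2 ratio was 1.56 ± 0.31 (SE). Without cluster 14, which held 44 of its 82 UMIs, SCM replicate 1 stood at 13.8 CPM. The other ternary complex factors, Elk1 and Elk4, had log2 ratios of 0.34 ± 0.29 and 0.33 ± 0.25, and Srf, the gene of serum response factor, one of -0.17 ± 0.34. None of the 6 tested genes of this list was called, 4 had a higher estimate in SCM (6 when scaled by library size alone, where the signs of Srf and Egr1 turned) and the median was 0.23. Cdk17 overlaps Elk3 on the opposite strand and was at 20.3 to 33.7 CPM in QCM and 35.7 to 51.6 in SCM.

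Rbms1 was at 8.85, 7.87 and 9.79 CPM in QCM and at 32.2, 56.2 and 24.0 in SCM. The lowest SCM sample was 2.46 times the highest QCM sample. The log2 ratio was 1.90 ± 0.33 (SE). Cluster 14 held 74 of the 131 UMIs in SCM replicate 1, which stood at 20.6 CPM without it. Of the 2 related genes, Rbms3 was at 9.60, 12.9 and 29.0 in QCM and 39.1, 54.7 and 37.7 in SCM, also without overlap (log2 ratio 1.22 ± 0.38, adjusted p = 0.93 by edgeR). Rbms2 overlapped between the media, with a log2 ratio of 0.08 ± 0.17. The median of these 2 genes was 0.65.

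Ncmap was the rarest member, with 481 UMIs in all. It was at 1.36, 1.81 and 2.01 CPM in QCM and at 6.39, 7.74 and 5.75 in SCM. The SCM mean was 6.63 ± 1.02 (SD, n = 3), against 1.73 ± 0.330 in QCM. The log2 ratio was 1.79 ± 0.29 (SE). In SCM replicate 1 its level rested on 26 UMIs, 17 of them from cluster 14. Without that cluster the SCM samples stood at 3.26, 7.90 and 5.78 CPM, and SCM replicate 1 was the lowest of them.

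**Figure D1:**
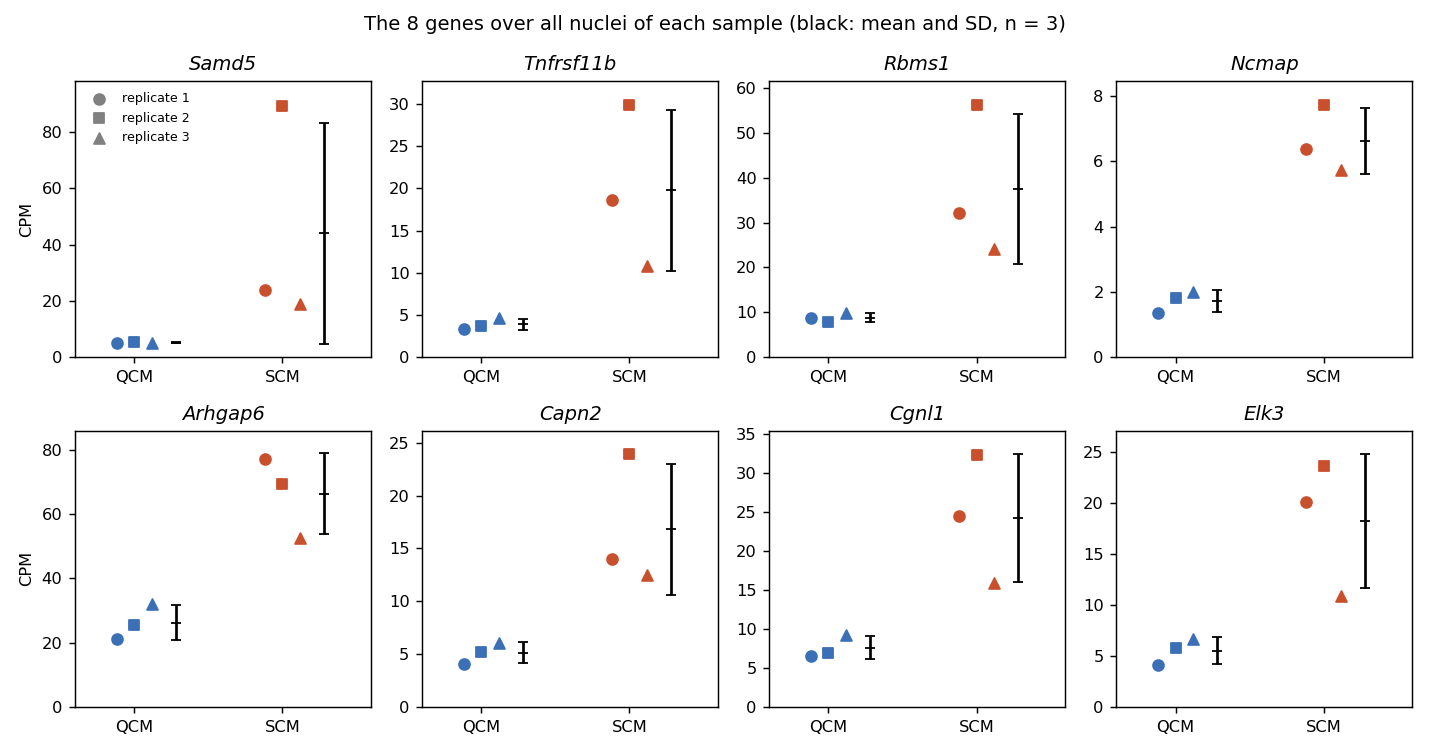
CPM (vertical axis, from 0) of the 8 genes in the 3 QCM and 3 SCM samples, with one symbol per replicate number and black bars for the mean and SD. In each panel every SCM sample lies above every QCM sample, and for Samd5 SCM replicate 2, at 89.1, lies far above the others.

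The separation was also seen when the doubtful nuclei were left out. Without cluster 14, without the nuclei with shared barcodes, and without nuclei of more than 50000 UMIs, all 8 genes again stood higher in every SCM than in every QCM sample, as did 4.65%, 4.81% and 4.32% of all genes. These sums are part of those that chose the genes, and nothing is read from the members' count. The ratio of means between media ran from 2.53 to 8.44 over the 8 genes with all nuclei, and from 2.48 to 7.68 without cluster 14. It ran from 2.39 to 5.89 without nuclei of more than 50000 UMIs, of which SCM replicate 2 held 21 in cluster 7. Without SCM replicate 1 the log2 ratios ran from 1.08 for Arhgap6 to 3.20 for Samd5, and without the shared barcodes from 1.11 to 2.90 for the same genes. Samd5 in SCM replicate 1 stood at 23.8 CPM with cluster 14 and at 11.6 without it, and 2 nuclei of that cluster supplied 59 of its 97 UMIs.

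Other properties of the samples also differed. The ribosomal share and the summed enterocyte, goblet, Paneth, enteroendocrine, tuft and stem cell markers overlapped between the media. The summed fetal markers, given with cluster 7 below, did not. Neither did a shorter M cell list, at 6.42 to 19.7 CPM in QCM and 5.05 to 5.40 in SCM. Ribosomal protein genes took 4.96% to 14.2% of UMIs in QCM and 2.64% to 7.30% in SCM. With that share as a covariate, the log2 ratios of the 8 genes ran from 1.15 to 2.39, with a median of 1.55, against 1.68 without it. Enterocyte markers summed to 946 to 4273 CPM in QCM and 403 to 1510 in SCM, and their estimates were lower in SCM for 9 of 9 genes with none called. Goblet, Paneth and enteroendocrine markers had lower estimates in SCM for 6 of 7, 5 of 6 and 10 of 10 genes, tuft markers for 6 of 7, and stem cell markers had higher ones for 7 of 9, again with none called. Scaled by library size alone, the estimates were lower for 5 of 7 goblet, 8 of 10 enteroendocrine and 5 of 7 tuft markers and higher for 8 of 9 stem cell markers, and those of the Paneth and enterocyte markers kept their signs. Their part in the members' difference was not tested.

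The listed markers of fibroblasts, the source of both media, were near 0. They summed to 1.85 to 7.28 CPM in QCM and 2.35 to 3.51 in SCM over 10 genes. Of the collagen genes that define the type, Col1a1 and Col1a2 had 4 UMIs each over all samples. Endothelial, smooth muscle, glial and immune markers summed to at most 13.5, 9.58, 9.58 and 2.66 CPM in any sample.

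The 8 genes shared a place of highest expression. Over samples with at least 10 nuclei in a cluster, the mean level of each was highest in cluster 7 in QCM as in SCM, which held 1442 nuclei, 3.78% of all. Cluster 7 was fetal-like by the marker list: 9 of the 13 listed genes of the fetal intestinal program, among them Ly6a, Clu, Anxa1 and Msln, were at least 2 times higher there than in the other nuclei at 5 or more CPM. Over all nuclei the 13 genes summed to 221 to 344 CPM in QCM and 434 to 1033 in SCM, and 9 of the 11 tested had a higher estimate in SCM with none called (11 when scaled by library size alone, where the signs of Il33 and Areg turned). This program marks the fetal gut epithelium and returns in adult epithelium under repair. Since clusters were built from the same counts, the level of a gene in one cluster against another carries no test. Cluster 7 held 16.4% and 7.93% of the UMIs of SCM replicates 2 and 3, against 2.84% to 3.82% in QCM. The genes were chosen by sums over all nuclei, which include these. The share of all genes highest in cluster 7, or separated there from every other cluster in QCM or SCM, was not counted. Nothing is therefore read from the number of members in either case.

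In QCM samples Samd5 was at 72.1, 82.6 and 67.1 CPM in cluster 7, and its next highest cluster, 13, had a mean of 14.7 ± 25.5 (SD, n = 3). Cluster 7 lay above every sample of every other cluster. The highest of those was cluster 13 of QCM replicate 3, at 44.1 on 3 UMIs, and that cluster was at 0 in QCM replicates 1 and 2. Rbms1 was at 56.8, 79.7 and 65.8 in cluster 7, and the highest value in any other cluster was 29.4, on 2 UMIs. Cgnl1, at 34.0, 39.1 and 32.9, and Tnfrsf11b, at 19.4, 42.0 and 32.9, were likewise separated from every other cluster.

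Capn2 was at 19.4, 42.0 and 31.6 in cluster 7 of the QCM samples, just above the highest other value of 18.01. Elk3 was at 24.95, 21.7 and 26.3, and the highest other value was 20.1. The remaining 2 genes were less bound to cluster 7. Ncmap was at 14.6, 2.90 and 7.89, and QCM replicate 2, with 2 UMIs of it there, fell within the range of other clusters, whose highest value was 6.93. Arhgap6 was present in every cluster, from a mean of 12.4 in cluster 12 to 48.7 ± 10.4 (SD, n = 3) in cluster 7. Its lowest cluster 7 value, 37.4, was below the highest sample of each of clusters 2, 6, 9, 13 and 14.

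Below cluster 7 the order of the clusters was not resolved. Of 104 pairs of neighbours in the order of QCM means of the other clusters, over the 8 genes, 3 did not overlap between their samples, and 0 of 88 in SCM. Cluster 6 was goblet-like with 6 of 7 goblet markers past the same limits, and the Paneth markers Lyz1, Mmp7 and Ang4 were past them too (3 of 6). In QCM it stood second for Arhgap6 (34.1 ± 3.48) and behind clusters 7 and 13 for Samd5 (10.9 ± 5.67). Cluster 9, enteroendocrine-like with 10 of 10 markers, stood second in QCM for Capn2 (9.98 ± 2.99), Cgnl1 (10.3 ± 2.59), Elk3 (10.1 ± 1.42) and Ncmap (3.81 ± 2.32; SD, n = 3 each). By SCM means it ranked 2 for Capn2, 3 for Ncmap, 5 for Elk3 and 8 for Cgnl1.

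In SCM samples cluster 7 was again first for all 8 genes, but SCM replicate 1 had only 17 nuclei there. Samd5 was at 32.5, 442 and 136 CPM in cluster 7, and SCM replicate 1, with 5 UMIs, fell within the range of other clusters. Tnfrsf11b was at 6.51, 120 and 64.0, with 1 UMI in SCM replicate 1. For Rbms1, Ncmap, Capn2, Cgnl1 and Elk3, every SCM sample in cluster 7 was above every SCM sample with at least 10 nuclei in another cluster. Below that number of nuclei, only Ncmap kept this separation of the 5. Its lowest cluster 7 value, 13.0 CPM in SCM replicate 1, rested on 2 UMIs. Cgnl1 was at 42.7 CPM on 56 UMIs in the 7 cluster 14 nuclei of SCM replicate 1, against 32.5 in its cluster 7, and the other samples past the lowest cluster 7 value held 1 or 2 UMIs of the gene.

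**Figure D2:**
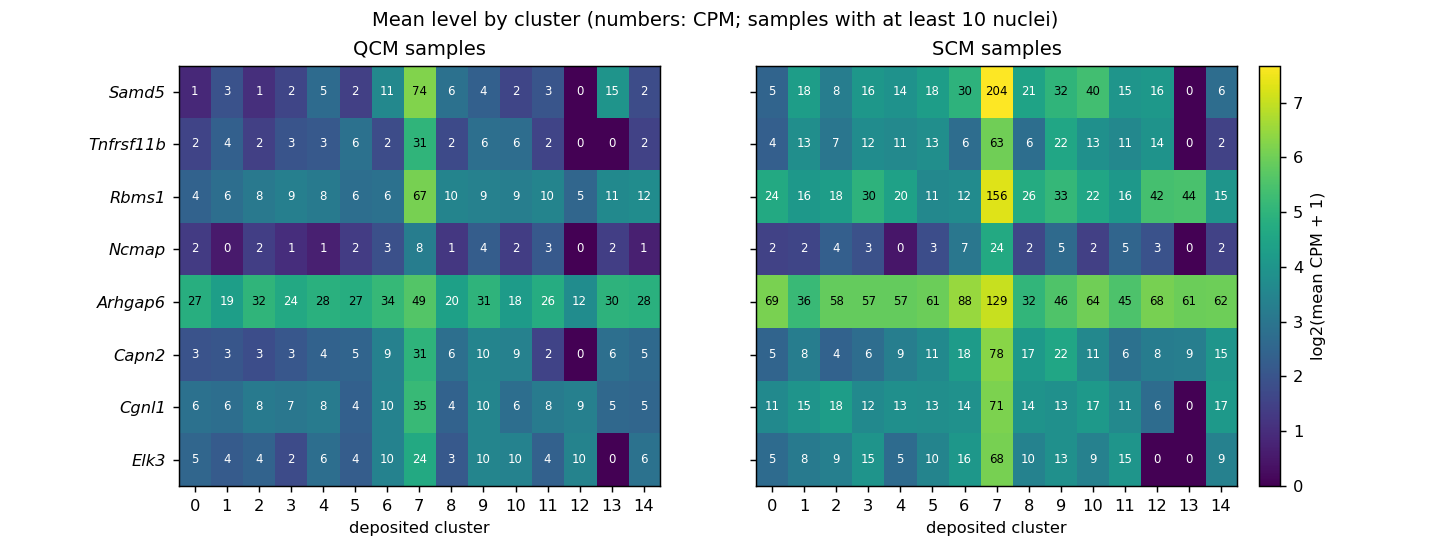
Mean CPM of each gene (rows) in each deposited cluster (columns) for QCM (left) and SCM samples (right), with samples under 10 nuclei in a cluster left out. The colour is log2 of the mean plus 1. Cluster 7 is the brightest column of each row in both panels, at 73.9 for Samd5 in QCM and 204 in SCM, and the row of Arhgap6 is the most even.

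Within clusters the direction was mostly shared. Of the 118 pairs of a member and a cluster with at least 1 UMI, the SCM mean was above the QCM mean in 110, as it was in 52% of all such pairs of a gene and a cluster. The 8 exceptions were Samd5, Ncmap and Cgnl1 in cluster 13, where a single SCM sample had at least 10 nuclei, Ncmap and Elk3 in cluster 4, Cgnl1 and Elk3 in cluster 12, and Elk3 in cluster 10. In the 13 clusters that could be fitted, 55 of the 104 pairs passed the low-count filter, which favours pairs that are high in either medium. No pair of any gene was called by edgeR (0% of 130109, 7490 at an unadjusted p under 0.05), and DESeq2 called 8 pairs, none of them of a member. With no low-count filter edgeR called 2984 pairs, 279 of them higher in SCM (0.0875% of pairs), and 20 of those 279 were pairs of a member, among them 6 members in cluster 7. With the replicate number as a block it called 110 pairs, 16 of them higher in SCM (0.0123%), among them Samd5 in cluster 9. These sums are part of those that chose the genes, and nothing is read from the members' counts.

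Samd5 had log2 ratios from 1.40 ± 0.40 (SE) in cluster 6 to 2.94 ± 0.71 in cluster 9, with 5 clusters fitted. Arhgap6 could be fitted in 11 clusters, with ratios from 0.47 ± 0.35 in cluster 9 to 1.59 ± 0.54 in cluster 10. In cluster 7 alone the 8 log2 ratios were close together, from 1.04 ± 0.36 for Cgnl1 to 1.46 ± 0.56 for Samd5. There Arhgap6, Capn2 and Elk3 were higher in every SCM than in every QCM sample, as were 7.18% of genes. The other 5 overlapped between the media because SCM replicate 1 lay below at least one QCM sample, and for Rbms1 the values were 78.1 against 79.7.

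The share of each gene's UMIs that came from cluster 7 differed between samples. Samd5 drew 50.7%, 43.5% and 49.0% of its UMIs from cluster 7 in the QCM samples, and 5.15%, 81.2% and 57.2% in the SCM samples. Cluster 7 itself made up 3.82%, 2.72% and 3.31% of QCM nuclei and 3.95%, 4.06% and 4.84% of SCM nuclei. In UMIs it made up 2.84% to 3.82% of QCM libraries, and 3.77%, 16.4% and 7.93% of SCM libraries, so SCM replicate 2 had the deepest cluster 7 nuclei relative to its library. Rbms1 drew 22.6% to 28.8% of its UMIs from cluster 7 in QCM and 9.16%, 71.2% and 48.3% in SCM. Arhgap6 drew 5.66% to 6.86% in QCM and 7.64%, 32.4% and 14.2% in SCM.

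**Figure D3:**
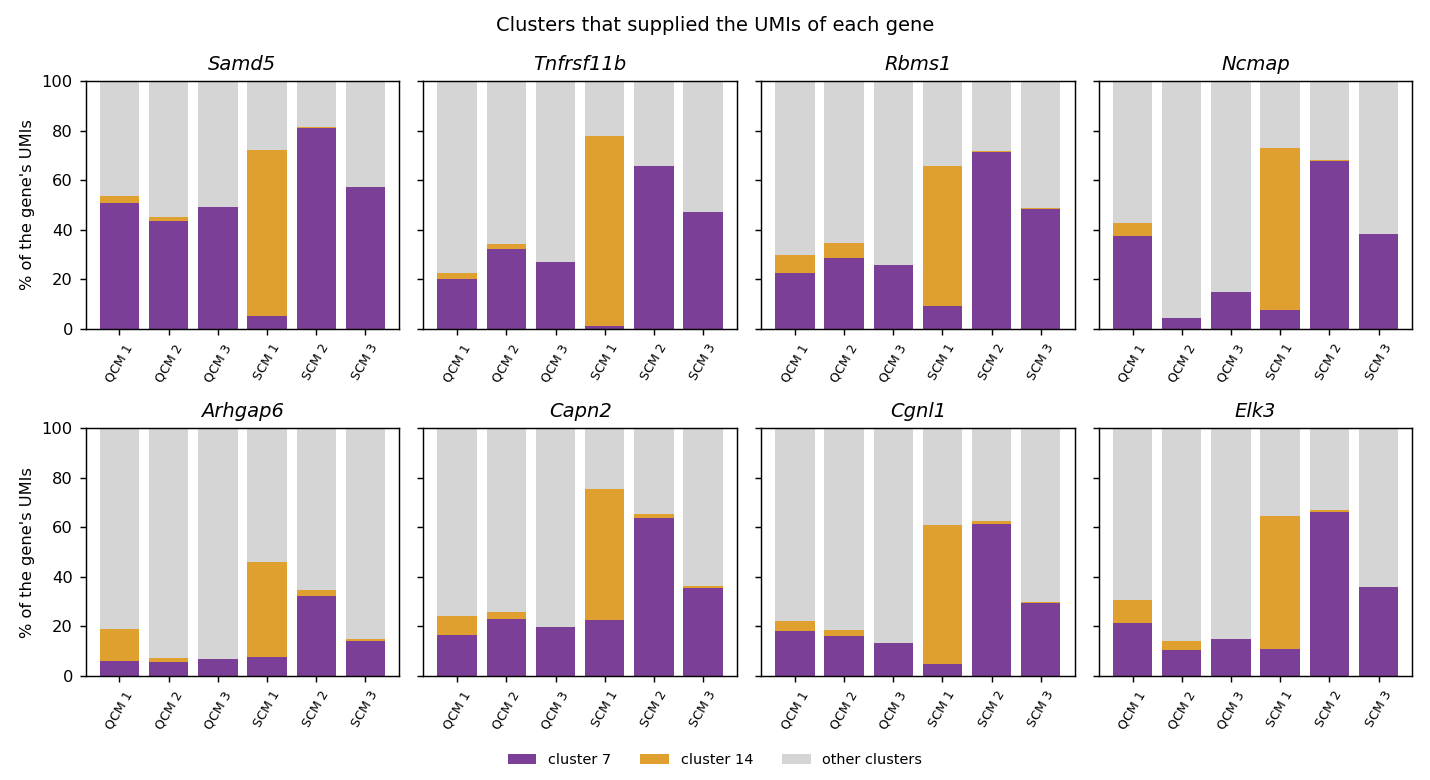
Percentage of each gene's UMIs (vertical axis, 0 to 100) that came from cluster 7 (purple), cluster 14 (orange) and all other clusters (grey) in each sample. Cluster 14 supplies a large part only in SCM replicate 1, from 38.2% for Arhgap6 to 76.3% for Tnfrsf11b, and cluster 7 supplies the most in SCM replicate 2.

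UMIs assigned to nuclei outside cluster 7 separated the media as well. The share of free RNA in these counts was not estimated, and its part in them was not tested, while the share of a library's UMIs in cluster 7 was itself higher in SCM replicates 2 and 3. Samd5 in those nuclei was at 2.55, 3.14 and 2.77 CPM in QCM and at 23.5, 20.02 and 8.75 in SCM, and the ratio of means was 6.18. All 8 genes were higher in every SCM than in every QCM sample among these nuclei, as were 4.21% of genes, with ratios of means from 2.35 for Arhgap6 to 6.18 for Samd5. With clusters 7 and 14 both left out, none of the 8 overlapped either, as was the case for 4.04% of genes, and the ratios ran from 1.92 for Capn2 to 4.67 for Samd5. The nearest approach was then Capn2, at 5.37 in SCM replicate 1 against 5.06 in QCM replicate 3. The counts outside cluster 7 are also part of those that chose the genes, so nothing is read from the number of members that separated.

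The step from the other nuclei to cluster 7 was taken for each gene and sample as the difference of log2(CPM + 1). It is described with no test, since its counts are part of those that chose the genes and an exact permutation test of 3 against 3 samples cannot give a p below 0.1. For Samd5 the step was 4.29 ± 0.10 on the log2 scale in QCM and 2.89 ± 2.13 in SCM (SD, n = 3 each). SCM replicate 1 had a step of 0.45, against 4.40 and 3.81 in the other SCM samples. For Arhgap6 the step was 0.91 ± 0.09 in QCM and 1.09 ± 0.17 in SCM (SD, n = 3 each). Over the 8 genes the step was larger in SCM for 4 and smaller for 4, with differences from -1.40 to 0.46. Without SCM replicate 1 it was larger in SCM for 7 of 8, all but Samd5.

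**Figure D4:**
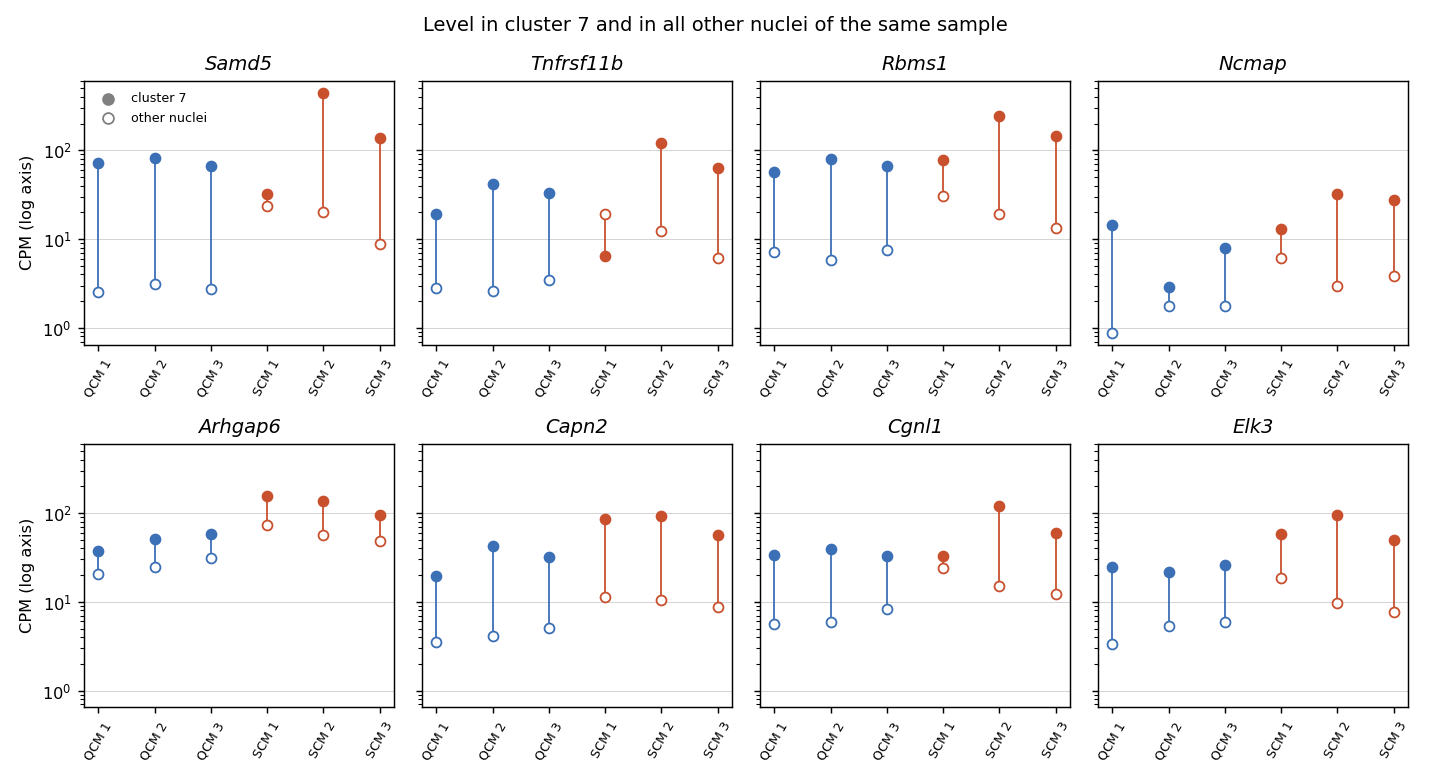
CPM (log axis) in cluster 7 (filled) and in all other nuclei (open) of each sample, joined by a line, for QCM (blue) and SCM (red). The filled points lie above the open ones in every sample except Tnfrsf11b in SCM replicate 1, where cluster 7 is at 6.51 and the other nuclei are at 19.1.

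For each of these genes, most nuclei of a sample held no UMI of it. The share of nuclei with a UMI reached 19.3% for Arhgap6 in SCM replicate 1. In cluster 7 of SCM replicate 2 it reached 48.0% for Samd5. Samd5 was detected in 0.739% to 2.45% of QCM nuclei and 2.37% to 6.98% of SCM nuclei, at median depths of 1578 to 8260 and 1966 to 3157 UMIs. Brought to 1000 UMIs per nucleus, with 2366 QCM and 813 SCM nuclei below that depth left out, the expected shares were 0.285% to 0.382% and 0.995% to 2.56%. In cluster 7 at that depth they were 1.51% to 3.03% in QCM and 1.86% to 16.9% in SCM. In cluster 0, the largest, they were 0% to 0.157% and 0% to 0.961%, and no cluster was known to lack the gene. For Arhgap6 the shares over all nuclei at that depth were 1.58% to 2.71% in QCM and 4.50% to 5.59% in SCM. Ncmap overlapped between the media at that depth, with 0.0970% to 0.194% in QCM and 0.156% to 0.359% in SCM.

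Across the 15 clusters the profiles of the 8 genes were correlated with each other, with Pearson's r of log2(CPM + 1) from 0.40 to 0.88 over 28 pairs and a median of 0.67. All 8 genes were highest in cluster 7 and the order of the other clusters was not resolved. The part of cluster 7 alone in these values, and in the rankings by r below, was not tested. The clusters share libraries and depth, so these values are descriptions. Among the 12311 genes at 10 or more CPM in some cluster, the profile most like that of Samd5 was that of Mmp15, a membrane-bound matrix metalloprotease (r = 0.95 over 15 clusters), followed by Lmna, which encodes lamin A (r = 0.95), and the keratin gene Krt7 (r = 0.92). Tnfrsf11b was most like Flna, the gene of the actin cross-linker filamin A (r = 0.94), Thbs1, which encodes the matrix protein thrombospondin 1 (r = 0.92), and Atp11a, a phospholipid flippase (r = 0.92).

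Rbms1 was most like Ajuba, a LIM domain protein of cell junctions (r = 0.92), Ankrd1 (r = 0.91) and Endod1 (r = 0.89). Capn2 was most like Tnfrsf23, a decoy receptor for TRAIL (r = 0.90), then Samd5 (r = 0.88) and the tropomyosin gene Tpm1 (r = 0.87). Cgnl1 was most like Pmepa1 (r = 0.95), which limits TGF-beta signalling, Gclc (r = 0.94), which makes glutathione, and Gpr137b (r = 0.93). Elk3 was most like Ildr1 (r = 0.96), a protein of tricellular junctions, the phosphatase gene Dusp10 (r = 0.94) and Iffo2 (r = 0.94). Ncmap was most like Atxn10 (r = 0.91), Cdh1 (r = 0.90), which encodes E-cadherin, and Cdk17 (r = 0.85), and Arhgap6 was most like the noncoding Pvt1 (r = 0.90), Far1os (r = 0.87) and Fam107b (r = 0.87).

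The size of the estimate depended on the setting. Its direction was set by the choice of the genes, so nothing is read from the log2 ratio of all 8 being above 0 in the main fit, as it was for 48.6% of the genes tested, and under 18 other settings. With the 9 clusters that every sample filled weighted equally, the ratios narrowed to between 0.91 for Tnfrsf11b and 1.26 for Samd5. That setting also replaced edgeR and its scaling of libraries by a limma fit of log2(mean CPM + 1). The part of the weights in the narrowing was not tested apart from that of the fit. With library size alone as the scaling the ratios ran from 1.34 to 3.09. Under that scaling the median over the genes tested stood at 0.14 rather than at -0.01, and the members moved with it. With replicates 2 and 3 alone, which leaves out the pair of libraries that shared 175 barcodes, the members ran from 1.03 for Arhgap6 to 3.27 for Samd5.

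**Figure D5:**
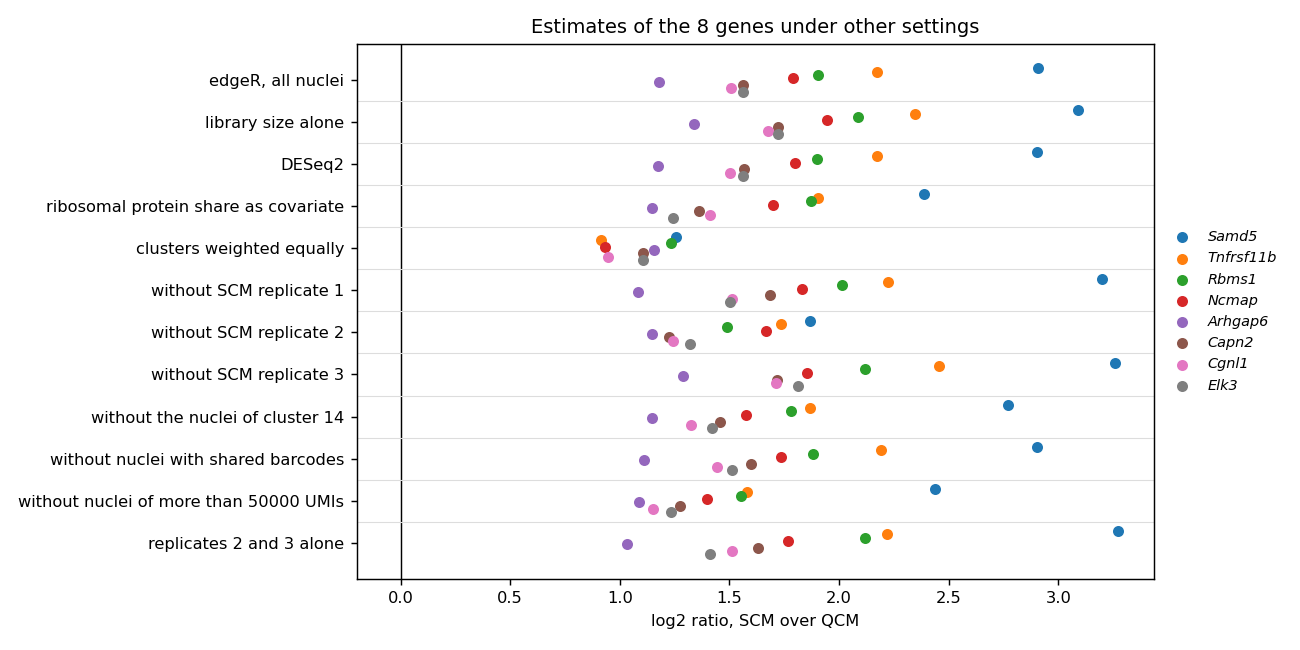
The log2 ratio of SCM over QCM (horizontal axis) for each of the 8 genes under the main fit and 11 of the other settings (rows), with a line at 0. All points lie to the right of 0, and they are closest together, from 0.91 to 1.26, where the clusters are weighted equally.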

How the data were processed

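Nuclei of 6 organoid samples were profiled with 10x Genomics 3′ v3.1 chemistry. The authors aligned reads to mm10 with Cell Ranger (version 2.1.1 in the submitters' processing notes), removed outlying nuclei, integrated samples and clustered nuclei, and deposited UMI counts per gene and nucleus, which were used as raw counts, with a cluster number for each nucleus. Their normalised log matrix was not used, and 0 columns of per-sample values lay outside the sample map. Gene symbols were matched for 31244 of 31319 Ensembl identifiers.

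Counts were summed per sample, and per sample and cluster where a sample had at least 10 nuclei and each medium at least 2 samples. edgeR 4.0.16 (TMM, filterByExpr with a minimum count of 10, quasi-likelihood test, Benjamini-Hochberg adjustment over all genes, or over all pairs of a gene and a cluster) was the main fit, and DESeq2 1.42.0 and limma 3.58.1 were alternatives. SE is the log2 ratio divided by the square root of its F statistic. Scripts ran in R 4.3.3 and Python 3.11.15 and were tested on simulated counts. No doublet caller was run. Intervals between samples cover the spread of these samples only.

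The members and all gene lists were chosen with earlier results of these data known. Named genes were the 8 members, 18 listed partners, any list gene called, and the 3 genes with the profile across clusters most like that of each member. Ccl20, Anxa5, Spib, Sox8, Gm15261, overlapping genes, marker examples and genes whose sign turned with the scaling were named after their values were seen. The partners listed for Arhgap6 are not reported here.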

Additional observations from a re-analysis of the deposited data

How the results depend on the processing

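edgeR called 0 genes over all nuclei, and the same 0 came from every other setting except DESeq2, which called 20. Within clusters it called 0 pairs, against 8 with DESeq2, 2984 with no low-count filter, of which 279 were higher in SCM, and 110 with the replicate number as a block. The causes of these differences were not tested. The settings that left out 1 replicate each gave 0 calls in both comparisons, and no partner gene was called under any setting. All 8 members had a higher estimate in SCM, a direction that their choice sets, and were highest in cluster 7 under every alternative run for those results. Their median log2 ratio was 1.68 and lay between 1.41 and 1.83 with 1 replicate left out. It fell to 1.11 with clusters weighted equally, where the fit was also changed to limma on log2(mean CPM + 1). The replicate block left it at 1.65. Same-numbered samples deviated together at correlations of 0.36, 0.46 and -0.09 for replicates 1, 2 and 3, and differently numbered ones at -0.46 to 0.17. Replicates 1 and 2 thus lay above the differently numbered pairs and replicate 3 did not. The numbers were not taken to pair samples in the main fit.

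The step to cluster 7 depended on SCM replicate 1, which had 17 nuclei there. It was larger in SCM for 4 genes, for 7 with at least 20 nuclei required, and for 7 without the nuclei with shared barcodes, both of which remove that sample. Leaving out 1 replicate gave 3 to 7 genes. Adding 0.1 or 5 CPM in place of 1 before the log left the number at 4. For Samd5 the difference of the step was -1.71 with 0.1 and -0.69 with 5, against -1.40 with 1. The difference of the step changed sign for Tnfrsf11b (0.20 with at least 20 nuclei, 0.22 without shared barcodes, and -2.10 to 0.20 with 1 replicate left out). It did so for Rbms1 (0.35 and 0.32 in the same settings, 0.41 without nuclei of more than 50000 UMIs, 0.20 with replicates 2 and 3 alone, and -0.78 to 0.35 with 1 replicate left out). Cgnl1 did likewise (0.29, 0.25, 0.40, 0.37, and -0.97 to 0.29 in the same order). With 1 replicate left out, Ncmap ran from -0.17 to 1.11 and Elk3 from -0.058 to 0.73. The settings on cluster 14, shared barcodes, deep nuclei and replicates 2 and 3 alone were chosen after seeing the data. Depth limits values that rest on few UMIs, such as Ncmap, with 26 UMIs in SCM replicate 1, and cluster 7 of that sample.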

Other observations

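The genes whose profile across clusters was most like that of a member were not chosen by the difference between media, although their profiles include the SCM samples. There were 23 of them outside the 8 members, and 22 passed the low-count filter. Like the members they were high in cluster 7, which held 3.77%, 16.4% and 7.93% of UMIs in the SCM samples and 2.84% to 3.82% in QCM, so nothing is read from the direction of their ratios. The log2 ratios of SCM over QCM ran from 0.03 for the tropomyosin gene Tpm1 to 2.47 ± 0.59 (SE) for Thbs1, which encodes thrombospondin 1, with a median of 0.73. None was called by edgeR, with adjusted p from 0.93 to 0.99. Ankrd1, a cytoskeletal and nuclear ankyrin repeat protein that did not pass the filter, was at a mean of 15.9 CPM in cluster 7 against a median of 0.142 in the other clusters.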
